A study of Mus musculus with 24 samples.

Results

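The naive pluripotency factors described here are the products of 10 genes, Nanog, Klf2, Klf4, Klf5, Esrrb, Tfcp2l1, Tbx3, Zfp42, Tcl1 and Nr0b1, out of 19938 genes measured on the arrays. Each was represented by its brightest probe set annotated to that symbol alone, and each had exactly 1 such set. In the GRCm38.p6 annotation Tfcp2l1 lies on chromosome 1, Klf4 on chromosome 4, Tbx3 on chromosome 5, Nanog on chromosome 6, Klf2 and Zfp42 on chromosome 8, Esrrb and Tcl1 on chromosome 12, Klf5 on chromosome 14 and Nr0b1 on chromosome X. Mouse D3 cells, an established line of embryonic stem cells, carried a knockdown of the arginine methyltransferase gene Prmt1 (siPRMT1) or a scrambled control (siSCR). Affymetrix whole-transcript arrays measured total RNA of the 2 lines in 4 states, with 3 arrays in each of the 8 groups and 24 in all. The states were undifferentiated cells, embryoid bodies (free-floating aggregates) of day 4, such bodies exposed for 12 h to 5 micromol ATRA (all-trans retinoic acid), and such bodies exposed for 12 h to the solvent DMSO. All groups share the D3 background, at least 3 passages on gelatin to leave feeder cells behind, and, for embryoid bodies, aggregation for 4 days without the cytokine LIF. Whether the knockdown was stable or transient, and whether each line came from 1 clone, is not stated in the labels.

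Mouse embryonic stem cells can be held in a naive state that resembles the early epiblast of the blastocyst. In it, LIF acts through STAT3 and a network of transcription factors sustains its own expression, and on withdrawal of LIF the cells leave this state by way of a primed, epiblast-like state before they commit to a lineage. NANOG is the homeodomain factor that lets cells self-renew without LIF when it is overexpressed. KLF2, KLF4 and KLF5 are Krüppel-like zinc finger factors, of which KLF4 lies downstream of STAT3. ESRRB is an orphan nuclear receptor that can stand in for NANOG, and TFCP2L1 is a CP2-family factor induced by LIF. TBX3 is a T-box factor with a part in both self-renewal and endoderm formation. Zfp42 encodes REX1, a zinc finger protein whose gene is widely used as a reporter of the naive state. TCL1 is a co-activator of the kinase AKT and not a transcription factor, and NR0B1 (DAX1) is an orphan nuclear receptor that acts mostly as a co-repressor.

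Promoter windows of 300 bases, with 250 before and 50 after the annotated start, were available for 8 of the 10 genes (RefSeq, GRCm38.p6). The windows of Klf2 and Tcl1, the genes called in opposite directions in the 2 lines on embryoid body formation, are printed below. Those of Nanog, Zfp42 and Nr0b1, which hold motifs of the network or of nuclear receptors, are printed too. Each is written 5′ to 3′ on the strand of the gene, at chr6:122707239-122707538 (plus strand) for Nanog, chr8:43306960-43307259 (minus strand) for Zfp42, chrX:86191525-86191824 (plus strand) for Nr0b1, chr8:72318812-72319111 (plus strand) for Klf2 and chr12:105222688-105222987 (minus strand) for Tcl1. Capitals mark matches to any of 5 motifs searched on both strands: the SOX-POU composite (TTTGCAT, any base, then ACAAT), the POU octamer ATTTGCAT, the nuclear receptor core AGGTCA, the Krüppel-like box GGGNGTGG and the STAT site TTCCNGGAA.
Nanog: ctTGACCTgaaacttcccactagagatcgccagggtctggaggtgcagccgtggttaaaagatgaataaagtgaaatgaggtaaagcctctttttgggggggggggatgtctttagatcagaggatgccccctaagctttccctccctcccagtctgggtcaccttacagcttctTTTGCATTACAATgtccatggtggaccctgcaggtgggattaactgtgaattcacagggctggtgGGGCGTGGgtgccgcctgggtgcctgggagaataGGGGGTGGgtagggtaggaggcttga
Zfp42: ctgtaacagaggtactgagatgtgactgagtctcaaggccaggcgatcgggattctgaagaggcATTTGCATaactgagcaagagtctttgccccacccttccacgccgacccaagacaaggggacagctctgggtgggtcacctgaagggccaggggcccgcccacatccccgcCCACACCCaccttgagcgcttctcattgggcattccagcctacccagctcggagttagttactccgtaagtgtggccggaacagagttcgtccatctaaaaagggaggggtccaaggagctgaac
Nr0b1: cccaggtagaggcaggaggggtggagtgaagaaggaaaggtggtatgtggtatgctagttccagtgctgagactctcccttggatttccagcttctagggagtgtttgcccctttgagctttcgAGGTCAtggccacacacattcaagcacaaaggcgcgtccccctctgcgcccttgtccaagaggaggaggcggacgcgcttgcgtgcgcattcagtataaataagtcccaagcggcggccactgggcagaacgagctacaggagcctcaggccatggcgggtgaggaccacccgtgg
Klf2: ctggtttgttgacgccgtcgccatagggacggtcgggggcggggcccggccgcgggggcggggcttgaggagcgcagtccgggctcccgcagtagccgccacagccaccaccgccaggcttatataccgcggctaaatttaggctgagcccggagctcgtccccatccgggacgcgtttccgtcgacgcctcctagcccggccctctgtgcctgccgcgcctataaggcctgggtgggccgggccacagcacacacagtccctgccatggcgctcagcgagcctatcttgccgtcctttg
Tcl1: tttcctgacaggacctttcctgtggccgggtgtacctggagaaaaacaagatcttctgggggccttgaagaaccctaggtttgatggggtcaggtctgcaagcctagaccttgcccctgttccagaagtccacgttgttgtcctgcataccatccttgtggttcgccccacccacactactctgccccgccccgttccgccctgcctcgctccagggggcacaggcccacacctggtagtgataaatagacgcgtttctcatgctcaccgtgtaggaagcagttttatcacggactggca

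The Nanog window held the SOX-POU composite from -75 to -63, counted with the start base as 0, with boxes of the Krüppel-like kind from -10 to -3 and from 24 to 31 and the nuclear receptor core on the reverse strand from -248 to -243. The overlapping window of another annotated Nanog start, not printed, held the same composite from -151 to -139. The composite occurred in 8 of all 32851 promoter windows of the table, 0.0244%, and the Krüppel-like box in 17.6% of them. The Zfp42 window held the octamer, present in 1.74% of all windows, from -186 to -179 and 1 Krüppel-like box on the reverse strand. The Tfcp2l1 window, not printed, held Krüppel-like boxes on the reverse strand from -61 to -54 and from -47 to -40. The Nr0b1 window held the nuclear receptor core, present in 16.3% of all windows, from -126 to -121. The windows of Klf2, Klf4, Esrrb and Tcl1 held none of the 5 motifs. The Klf2 window had 69.3% G and C with 32 CpG dinucleotides, and the Tcl1 window 56.7% with 11. A match is a string of letters and not a measured binding site.

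All values below are log2 expression values as deposited, in which 1 unit is a doubling, or differences between group means on that scale, given ± their standard error from limma from groups of 3 arrays. Calls rest on Benjamini-Hochberg adjusted p-values under 0.05, where each comparison was adjusted over the 19938 genes. Array medians lay between 7.47 and 7.67, and the lowest correlation between arrays of a group was 0.990. The 6 siSCR arrays of ATRA and DMSO stood apart from the other 18: on the first principal component, which held 52.2% of the variance, they lay at 50.1 to 61.2 against -26.8 to -9.44. Their values were also compressed, with a standard deviation over probe sets of 2.28 to 2.34 against 2.42 to 2.50 in the other 18. Values from these arrays therefore depend more on how arrays are scaled. The text gives scalings that ended a call and some that turned a direction. As a check of the labels, Prmt1 stood in siPRMT1 at 36.7% to 64.6% of its siSCR level, lower in each state (adjusted p from 4.99e-14 to 3.2e-07, limma). The level was 38.6% in undifferentiated cells, 64.6% on day 4, 46.2% with DMSO and 36.7% with ATRA. The step to day 4 thus differed between the lines for Prmt1 itself (0.74 ± 0.087, limma adjusted p = 2.64e-06). So did its ATRA response (-0.33 ± 0.087, limma adjusted p = 0.0396). The part of these Prmt1 differences in the naive factors was not tested. The stem cell factor Pou5f1 had group means between 13.09 and 13.29 in all 8 groups, and Sox2 between 12.12 and 13.05.

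The 10 genes were bright in every group, each brighter than at least 83.4% of all genes in its mean over the 24 arrays, and group means of no gene spanned more than 1.98. Klf4 had the widest span, followed by Tcl1 with 1.60, Tbx3 with 1.32 and Zfp42 with 1.22. Within the siPRMT1 line 9 of the 10, all but Nr0b1, had their highest group mean in undifferentiated cells. Within siSCR 3 had it there (Nanog, Klf4 and Tbx3). These are ranks of means only, and the share over all genes was not computed. Klf5 and Zfp42, among the 9, were not called between undifferentiated cells and day 4 in siPRMT1 (limma adjusted p = 0.149 and 0.238). The siSCR ranks include the arrays that stood apart, and Zfp42 was highest there with DMSO. Neighbouring group means of a gene, put in order of level, often could not be separated by their arrays: of the 7 neighbouring pairs of each gene, 5 overlapped for Klf2, Esrrb and Zfp42, 4 for Nanog and Nr0b1, 3 for Klf5, Tfcp2l1 and Tcl1, 2 for Klf4 and 1 for Tbx3. The plot of values by array shows each gene in the 8 groups.

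**Figure D1:**
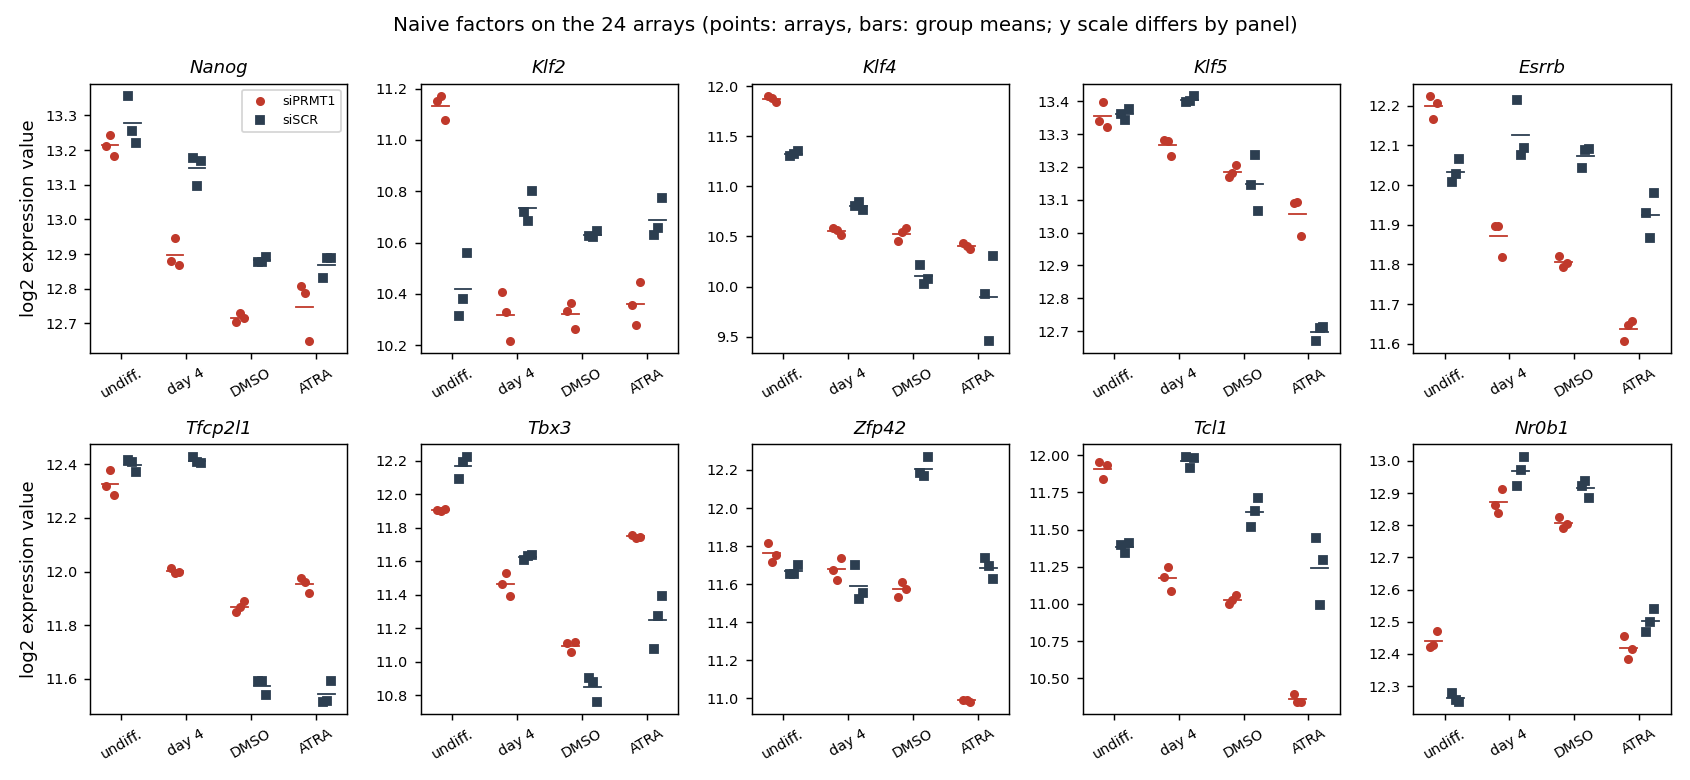
Log2 expression values (y axis, scale differing by panel) of the 10 naive factors in undifferentiated cells, day 4, DMSO and ATRA (x axis), with each array as a point and the group mean as a bar, siPRMT1 left of siSCR. Klf2, Tcl1, Esrrb and Nr0b1 are higher in siPRMT1 in undifferentiated cells and lower in siPRMT1 in all 3 embryoid body states, as deposited. The Nr0b1 differences of day 4 and ATRA were not called.

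In undifferentiated cells the knockdown went with higher Klf2, Klf4, Tcl1, Esrrb and Nr0b1 and with lower Tbx3, while Nanog, Klf5, Tfcp2l1 and Zfp42 were not called. So 5 of the 10 were called higher, against 7.63% of all genes, and 1 lower, against 11.2%, and the median difference of the 10 was 0.13 against 0.01 over all genes. The arrays of 6 lay wholly above and those of 1 wholly below siSCR, against 15.4% and 20.0% of all genes. In these bulk RNA samples fewer cells of a type and less RNA per cell cannot be told apart, here and below.

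Klf2 measured 11.15, 11.17 and 11.08 in undifferentiated siPRMT1 cells, against 10.31, 10.38 and 10.56 in undifferentiated siSCR cells. All 3 siPRMT1 arrays were above all 3 siSCR arrays. The difference was 0.71 ± 0.067 (limma adjusted p = 2.52e-07). Klf4 measured 11.90, 11.88 and 11.85 in siPRMT1, against 11.30, 11.32 and 11.35 in siSCR, a difference of 0.55 ± 0.12 (limma adjusted p = 0.00233). The groups were again apart, with little scatter inside either, and the standard error of Klf4 is wide because the fit shares 1 spread among the 8 groups. Tcl1 measured 11.95, 11.84 and 11.93 in siPRMT1, against 11.39, 11.34 and 11.41 in siSCR, a difference of 0.53 ± 0.081 (limma adjusted p = 8.64e-05). Its lowest siPRMT1 array lay above its highest siSCR array.

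The nuclear receptor genes differed less. Esrrb measured 12.22, 12.17 and 12.21 in siPRMT1, against 12.01, 12.03 and 12.06 in siSCR, with a difference of 0.17 ± 0.048 (limma adjusted p = 0.0173). The arrays did not overlap, but the call was lost when any of 4 of the 6 arrays was left out (limma adjusted p 0.0273 to 0.0671 over the 6). Those arrays were siPRMT1 undifferentiated replicates 1 and 3 and siSCR undifferentiated replicates 1 and 2. Nr0b1 measured 12.42, 12.43 and 12.47 in siPRMT1, against 12.28, 12.26 and 12.25 in siSCR, a difference of 0.18 ± 0.043 (limma adjusted p = 0.0056). With only the groups compared in the fit neither gene was called (adjusted p = 0.0716 for Esrrb and 0.0527 for Nr0b1), and median centring also ended the call of Esrrb (0.16, adjusted p = 0.0924). Tbx3 was the only gene of the 10 called lower, with 11.90, 11.90 and 11.91 in siPRMT1 against 12.09, 12.19 and 12.23 in siSCR, a difference of -0.26 ± 0.064 (limma adjusted p = 0.00536). Nanog, with 13.21, 13.24 and 13.18 in siPRMT1 and 13.36, 13.25 and 13.22 in siSCR, had overlapping groups and a difference of -0.06 ± 0.051 (limma adjusted p = 0.478).

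Fibroblast and feeder markers also differed between these cells. Of 11 such genes, 8 were called lower in siPRMT1 and 0 higher, among them S100a4 at -1.01 ± 0.11 and Prrx1 at -1.01 ± 0.13, and their mean level per array was 8.53 to 8.58 in siPRMT1 against 9.02 to 9.08 in siSCR. Of all genes 11.2% were called lower and 7.63% higher. The array gives no detection calls, so no marker can be said to be at 0. Their part in the differences of the naive factors was not tested.

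In day 4 embryoid bodies 6 of the 10 genes were lower in siPRMT1 and 0 were higher. Tcl1, Tfcp2l1, Klf2, Esrrb and Nanog were called lower by 0.25 to 0.79, and Klf5 by less, while 7.01% of all genes were called lower and 11.4% higher. The median difference of the 10 was -0.25, against -0.02 over all genes. The arrays of 9 of the 10 did not overlap between the lines, with 0 above and 9 below siSCR, against 21.5% and 19.1% of all genes. After median centring of the arrays 4 of the 10 were called lower and 0 higher, since Nanog (-0.17, limma adjusted p = 0.0903) and Klf5 lost their calls, and 82.9% of all calls were higher against 61.9% as deposited.

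Tcl1 measured 11.18, 11.25 and 11.09 in day 4 siPRMT1 embryoid bodies, against 11.99, 11.91 and 11.98 in day 4 siSCR embryoid bodies. The groups lay far apart relative to their scatter. The difference was -0.79 ± 0.081 (limma adjusted p = 6.36e-07). Klf2 measured 10.41, 10.33 and 10.22 in siPRMT1, against 10.72, 10.68 and 10.80 in siSCR, a difference of -0.42 ± 0.067 (limma adjusted p = 0.000133). Tfcp2l1 measured 12.01, 12.00 and 12.00 in siPRMT1, against 12.43, 12.41 and 12.40 in siSCR, a difference of -0.41 ± 0.043 (limma adjusted p = 7.14e-07). Neither gene overlapped between the lines, although Tfcp2l1 had not been called in undifferentiated cells.

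Esrrb measured 11.90, 11.90 and 11.82 in siPRMT1, against 12.21, 12.07 and 12.09 in siSCR, a difference of -0.26 ± 0.048 (limma adjusted p = 0.000602). Nanog measured 12.88, 12.95 and 12.87 in siPRMT1, against 13.18, 13.10 and 13.17 in siSCR, a difference of -0.25 ± 0.051 (limma adjusted p = 0.00131). Both were lower on every siPRMT1 array. Klf2, Tcl1 and Esrrb were the 3 genes called higher in undifferentiated siPRMT1 cells and lower on day 4. Klf5 measured 13.28, 13.28 and 13.23 in siPRMT1, against 13.40, 13.40 and 13.42 in siSCR, a difference of -0.14 ± 0.048 (limma adjusted p = 0.0472). Its arrays did not overlap, but its call was lost without any 1 of the 6 arrays of the 2 groups (adjusted p 0.0812 to 0.144). Quantile normalization (-0.093, limma adjusted p = 0.22) and scaling every array to the same standard deviation (-0.13, limma adjusted p = 0.106) also ended the Klf5 call.

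Klf4 measured 10.58, 10.57 and 10.52 in siPRMT1, against 10.80, 10.84 and 10.76 in siSCR. These groups did not overlap either, and the difference of -0.24 ± 0.12 was not called with the spread shared by all groups (limma adjusted p = 0.184). Without the 6 siSCR arrays of ATRA and DMSO, where Klf4 scattered most, the same difference was called (limma adjusted p = 0.000496). Tbx3, Nr0b1 and Zfp42 were not called, with differences of -0.16, -0.10 and 0.09. Of 16 alternative settings, 4 called Tbx3 lower and 2 called Nr0b1 lower. Tbx3 was called without the same 6 arrays (limma adjusted p = 0.0125) and after quantile normalization (-0.21, limma adjusted p = 0.0258). Median centring brought Tbx3 to -0.08 and Nr0b1 to -0.02, neither called. Zfp42 was the only gene whose arrays overlapped between the lines, at 11.68, 11.62 and 11.74 in siPRMT1 and 11.70, 11.52 and 11.55 in siSCR.

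**Figure D2:**
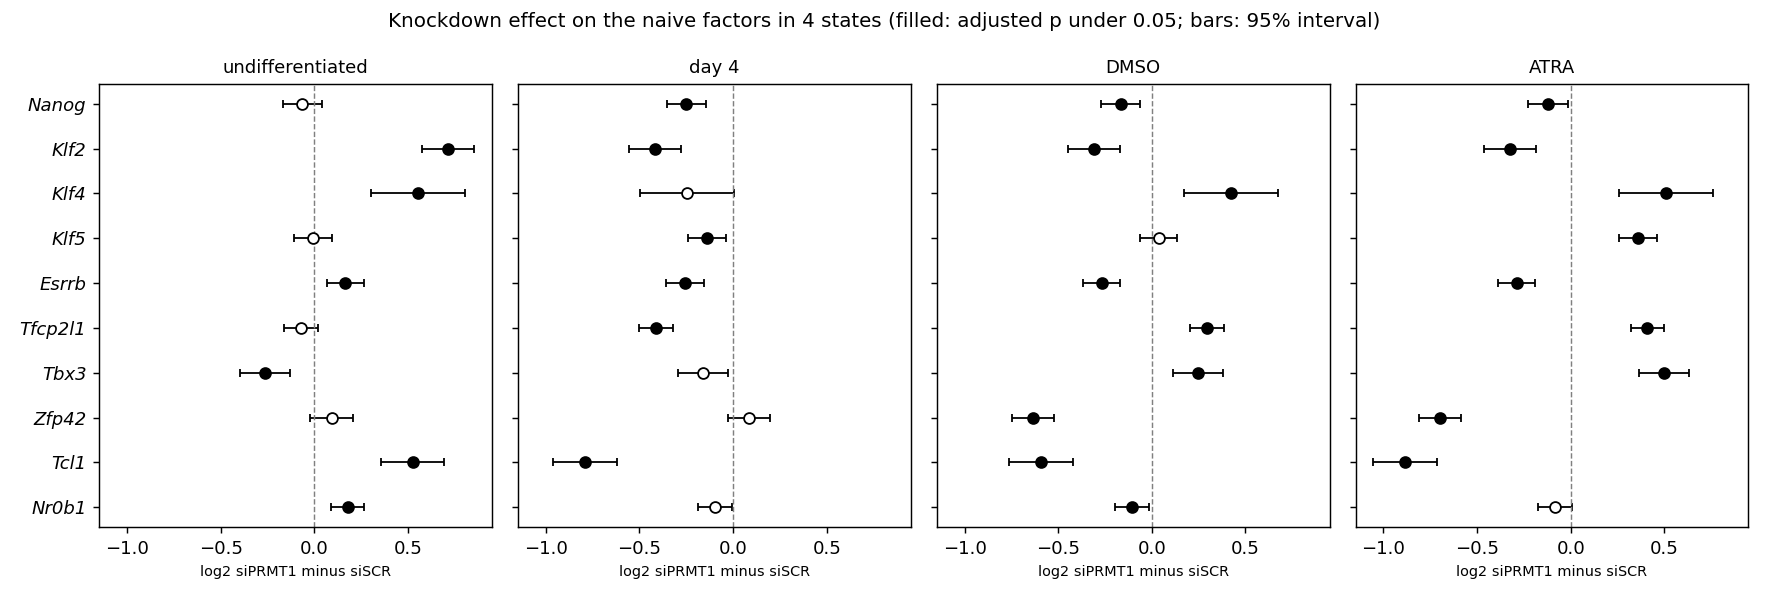
Differences of the 10 naive factors between siPRMT1 and siSCR (x axis, log2 units, siPRMT1 minus siSCR) in each of the 4 states, as points with 95% intervals, filled where the gene was called. Klf2, Tcl1, Esrrb and Nr0b1 lie right of 0 in undifferentiated cells and left of 0 in all 3 embryoid body states. The Nr0b1 points of day 4 and ATRA are not filled.

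Embryoid body formation, the step from undifferentiated cells to day 4, went with a fall of 7 of the 10 genes in siPRMT1 and of 2 in siSCR. In siPRMT1, Klf4, Klf2, Tcl1, Tbx3, Esrrb, Tfcp2l1 and Nanog fell and Nr0b1 rose, against 18.4% of all genes that fell and 23.0% that rose. In siSCR, Tbx3 and Klf4 fell and Nr0b1, Tcl1 and Klf2 rose, against 13.7% of all genes that fell and 14.5% that rose. The medians of the 10 were -0.33 in siPRMT1 and 0.03 in siSCR, beside -0.043 and 0.00067 over all genes. Zfp42 and Klf5 were not called in either line, and in siPRMT1 median centring turned them to 0.033 and 0.027. Day 4 arrays lay wholly above undifferentiated arrays for 1 gene and below for 8 in siPRMT1, against 28.5% and 28.9% of all genes, and above for 5 and below for 3 in siSCR, against 21.0% and 20.0%. Markers of other cells moved in the same step: fibroblast and feeder genes fell in 10 of 11 cases in siPRMT1 (median -1.01) and 9 of 11 in siSCR (median -1.39), and 0 rose. Primed epiblast genes rose in 8 of 8 cases in siPRMT1 (median 2.06) and 7 of 8 in siSCR (median 0.87), and endoderm genes in 10 of 10 (median 1.33) and 9 of 10 (median 0.78). Their part in the changes of the naive factors was not tested.

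Klf2 and Tcl1 moved in opposite directions in the 2 lines. Klf2 fell by 0.82 ± 0.067 in siPRMT1 (limma adjusted p = 3.88e-09) and rose by 0.32 ± 0.067 in siSCR (limma adjusted p = 0.000978). Tcl1 fell by 0.74 ± 0.081 in siPRMT1 (limma adjusted p = 2.8e-07) and rose by 0.58 ± 0.081 in siSCR (limma adjusted p = 9.17e-06). In both genes the siPRMT1 line began above siSCR and ended below it, with no overlap between day 4 and undifferentiated arrays in either line. The difference between the lines in this step, siPRMT1 minus siSCR, was -1.13 ± 0.095 for Klf2 (limma adjusted p = 4.46e-08) and -1.32 ± 0.11 for Tcl1 (limma adjusted p = 6.92e-08).

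Klf4 fell in both lines, by 1.32 ± 0.12 in siPRMT1 (limma adjusted p = 1.95e-08) and by 0.52 ± 0.12 in siSCR (limma adjusted p = 0.00206). Its fall was deeper in siPRMT1, with a difference of -0.80 ± 0.17 (limma adjusted p = 0.00159). Esrrb fell by 0.33 ± 0.048 in siPRMT1 and differed by 0.09 ± 0.048 in siSCR (limma adjusted p = 0.17), and Tfcp2l1 fell by 0.33 ± 0.043 in siPRMT1 and differed by 0.02 in siSCR (limma adjusted p = 0.874). Both steps differed between the lines, by -0.42 ± 0.068 for Esrrb (limma adjusted p = 9.85e-05) and by -0.34 ± 0.060 for Tfcp2l1 (limma adjusted p = 0.000269). Nr0b1 was the exception among the called genes, since it rose in both lines, by 0.43 ± 0.043 in siPRMT1 and 0.71 ± 0.043 in siSCR, with day 4 arrays of 12.86, 12.84 and 12.91 in siPRMT1 and of 12.92, 12.97 and 13.01 in siSCR. Its rise was smaller in siPRMT1 by 0.28 ± 0.061, an interaction of -0.28 (limma adjusted p = 0.0022). Median centring ended that call (-0.19, limma adjusted p = 0.093).

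Thus the step differed between the lines for 6 of the 10 genes, all lower in siPRMT1, against 8.83% of all genes with a lower and 15.0% with a higher interaction. Tbx3 fell in both lines, by 0.44 in siPRMT1 and 0.55 in siSCR, without a called difference between them (0.10, limma adjusted p = 0.477). Nanog fell by 0.31 ± 0.051 in siPRMT1 (limma adjusted p = 3.57e-05) and differed by -0.13 ± 0.051 in siSCR (limma adjusted p = 0.0633), and its interaction of -0.19 was not called (limma adjusted p = 0.067). Without the undifferentiated siSCR replicate 1, its highest array, that interaction was called (limma adjusted p = 0.0328).

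**Figure D3:**
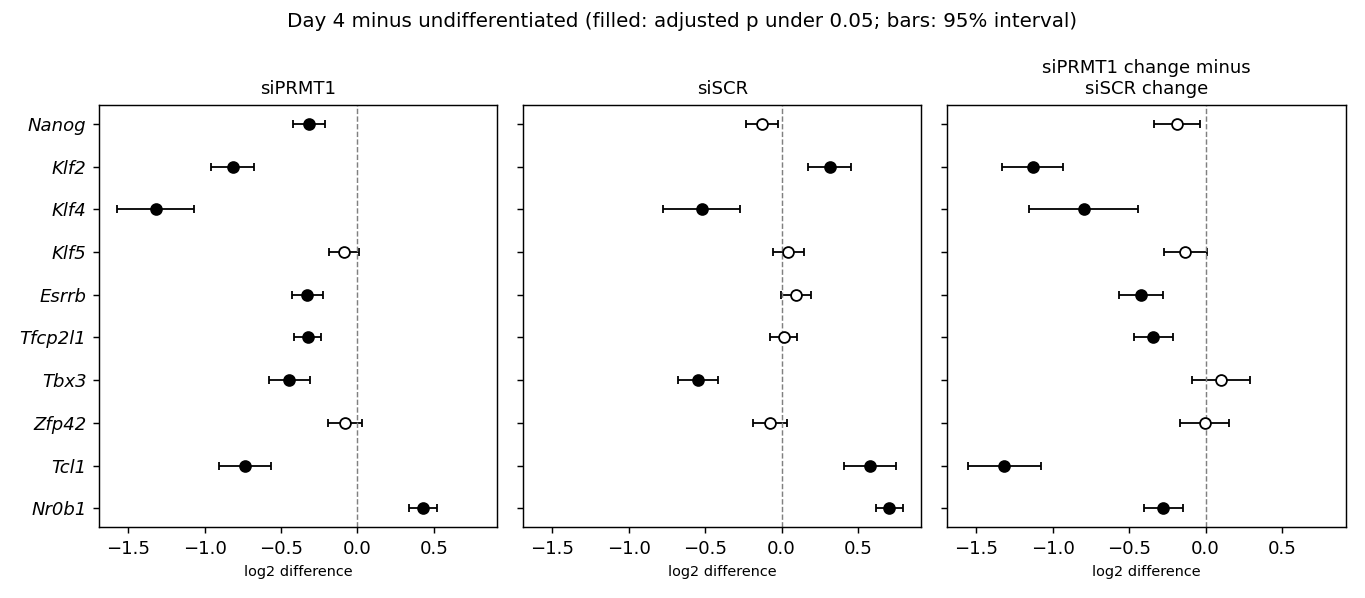
Differences of the 10 naive factors between day 4 embryoid bodies and undifferentiated cells (x axis, log2 units) in siPRMT1, in siSCR and as the difference of the 2 lines, as points with 95% intervals, filled where the gene was called. Klf2 and Tcl1 have filled points left of 0 in siPRMT1 and right of 0 in siSCR.

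Other genes of the network and of neighbouring states were read from lists chosen with earlier results of these data known, so their counts are a description. Beside them, 7.63% of all genes were called higher and 11.2% lower in undifferentiated siPRMT1 cells, and 11.4% and 7.01% on day 4. On embryoid body formation 18.4% of all genes fell and 23.0% rose in siPRMT1, and 13.7% fell and 14.5% rose in siSCR. Among 9 genes of LIF and STAT3 signalling, 3 were called higher in undifferentiated siPRMT1 cells, namely Socs3, the feedback inhibitor of the pathway (0.51 ± 0.066), Pim3 (0.34 ± 0.061) and the receptor gene Lifr (0.29 ± 0.059), and 0 lower. In day 4 embryoid bodies 4 of the 9 were called lower in siPRMT1, with Socs3 at -0.97 ± 0.066, the kinase genes Pim1 at -0.52 and Pim3 at -0.24, and Bcl3 at -0.26, and 0 higher. On embryoid body formation 7 of the 9 fell and 1 rose in siPRMT1, and 6 fell and 2 rose in siSCR. Socs3 fell in both, by 2.02 ± 0.066 in siPRMT1 and by 0.54 ± 0.066 in siSCR, with an interaction of -1.48 ± 0.094 (limma adjusted p = 1.14e-09). The list median in that step was -0.58 in siPRMT1 and -0.29 in siSCR.

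Of 8 other genes of the naive state, 3 were lower in day 4 siPRMT1 embryoid bodies and 0 higher: the adhesion gene Pecam1 (-0.72 ± 0.067), the naive-state regulator Prdm14 (-0.60 ± 0.069) and Fbxo15 (-0.37 ± 0.064). On day 4, 7.01% of all genes were called lower in siPRMT1 and 11.4% higher. In undifferentiated cells 1 of the 8 was higher in siPRMT1, the growth factor gene Fgf4 (0.42 ± 0.077), and 1 was lower, Fbxo15 (-0.20 ± 0.064). The general pluripotency list, whose genes are used in naive and primed cells alike, had 11 measured members of 12. In siPRMT1, 2 were higher and 2 lower on day 4 with a median of 0.03. In undifferentiated siPRMT1 cells 4 were called higher, 2 lower and 5 were not called, against 7.63% of all genes higher and 11.2% lower. The differences of the list in undifferentiated cells had a median of 0.16 and ran from -0.31 to 0.27, so the largest was downward.

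Markers of other states moved in the same samples. All 8 primed epiblast genes were higher in day 4 siPRMT1 than in day 4 siSCR embryoid bodies, with a median of 1.01, as in Lef1 (1.71 ± 0.059), Fgf5 (1.37 ± 0.11), Dnmt3a (1.11 ± 0.060) and Otx2 (0.87 ± 0.12). Of 10 endoderm markers 9 were higher and 0 lower, with a median of 0.75. The mean level per array of the primed list on day 4 was 10.16 to 10.24 in siPRMT1 and 9.17 to 9.23 in siSCR, and that of the endoderm list 10.29 to 10.40 in siPRMT1 and 9.43 to 9.63 in siSCR. Fibroblast and feeder markers were at 7.48 to 7.51 in siPRMT1 against 7.68 to 7.86 in siSCR on day 4, with 5 of 11 called lower and 0 higher. Of 4 measured mesoderm markers 1 was higher and of 5 trophectoderm markers 1 was higher, with 0 lower in either list. Of all genes 11.4% were called higher in siPRMT1 on day 4 and 7.01% lower. The part of these cell states in the differences of the naive factors was not tested.

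**Figure D4:**
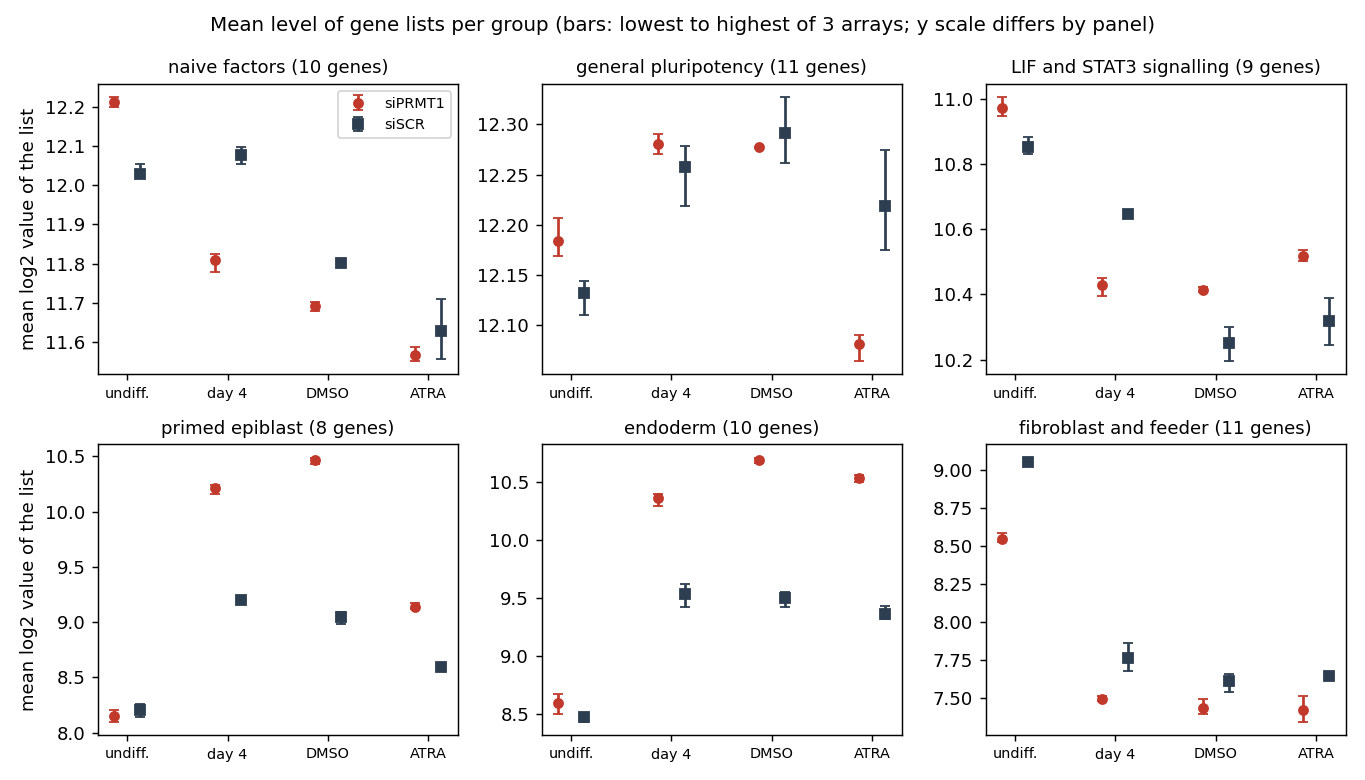
Mean log2 value of gene lists (y axis, scale differing by panel) by state (x axis) and line, siPRMT1 left of siSCR, with bars from the lowest to the highest of 3 arrays. On day 4 the naive factors average 11.78 to 11.83 per array in siPRMT1 and 12.05 to 12.10 in siSCR, and the primed list is higher in siPRMT1.

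In embryoid bodies kept for 12 h with ATRA or DMSO, the lines differed in most of the 10 genes and in both directions. With ATRA, Klf4, Klf5, Tfcp2l1 and Tbx3 were higher in siPRMT1 and Nanog, Klf2, Esrrb, Zfp42 and Tcl1 were lower. With DMSO, Klf4, Tfcp2l1 and Tbx3 were higher and Nanog, Klf2, Esrrb, Zfp42, Tcl1 and Nr0b1 were lower. These counts stand in a wide background: 70.1% of all genes were called with ATRA (32.2% higher, 38.0% lower) and 65.9% with DMSO (31.3% higher, 34.6% lower), and both comparisons use the 6 siSCR arrays that stood apart. With ATRA the siPRMT1 arrays lay wholly above siSCR for 4 genes and below for 6, against 31.7% and 34.3% of all genes, and with DMSO for 3 and 6, against 32.6% and 36.5%. The medians of the 10 were -0.10 with ATRA and -0.14 with DMSO, beside -0.11 and -0.09 over all genes, and centring the arrays on their medians moved the all-gene medians to 0.03 and 0.02. The share of calls that were higher was 45.9% with ATRA and 47.5% with DMSO, and 59.8% and 59.7% after this centring. The split of the 10 with ATRA was 4 higher and 4 lower after centring and 3 and 6 after scaling to 1 standard deviation or after quantile normalization. With DMSO it was 3 and 4 after centring, 2 and 7 after scaling to 1 standard deviation, and 1 and 6 after quantile normalization.

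Zfp42 had the clearest split. It measured 10.99, 10.99 and 10.98 in siPRMT1 with ATRA, against 11.74, 11.69 and 11.63 in siSCR with ATRA, a difference of -0.70 ± 0.054 (limma adjusted p = 4.58e-10). It measured 11.53, 11.61 and 11.57 in siPRMT1 with DMSO, against 12.18, 12.17 and 12.27 in siSCR with DMSO, a difference of -0.63 ± 0.054 (limma adjusted p = 2.06e-09). The lines were far apart in both treatments, although they were not called apart in undifferentiated cells or on day 4. Tcl1 measured 10.39, 10.34 and 10.34 in siPRMT1 with ATRA, against 11.45, 10.99 and 11.29 in siSCR with ATRA, a difference of -0.88 ± 0.081 (limma adjusted p = 6.39e-09). With DMSO it measured 11.00, 11.03 and 11.06 in siPRMT1, against 11.52, 11.62 and 11.72 in siSCR, a difference of -0.59 ± 0.081 (limma adjusted p = 2.26e-06). Its siPRMT1 arrays were below every siSCR array of their treatment, and the siSCR arrays scattered more.

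Klf4 measured 10.43, 10.40 and 10.38 in siPRMT1 with ATRA, against 9.92, 9.46 and 10.31 in siSCR with ATRA, a difference of 0.51 ± 0.12 (limma adjusted p = 0.000972). With DMSO it measured 10.46, 10.54 and 10.59 in siPRMT1, against 10.21, 10.03 and 10.07 in siSCR, a difference of 0.42 ± 0.12 (limma adjusted p = 0.00452). The siSCR arrays of ATRA were the most scattered of any gene and group among the 10, with a standard deviation of 0.42, yet none reached a siPRMT1 array. Without siSCR ATRA replicate 2, its lowest array, the ATRA difference was 0.29 (limma adjusted p = 0.00391), and without replicate 3, its highest, it was 0.71 (limma adjusted p = 9.51e-07). Tbx3 measured 11.76, 11.74 and 11.75 in siPRMT1 with ATRA, against 11.08, 11.28 and 11.39 in siSCR with ATRA, a difference of 0.50 ± 0.064 (limma adjusted p = 8.29e-07). With DMSO it measured 11.11, 11.06 and 11.12 in siPRMT1, against 10.90, 10.88 and 10.76 in siSCR, a difference of 0.25 ± 0.064 (limma adjusted p = 0.00213). Both genes were thus higher in siPRMT1 here, while Tbx3 had been lower in undifferentiated siPRMT1 cells. Quantile normalization ended the calls of Klf4 with ATRA (0.24, limma adjusted p = 0.0893) and with DMSO (0.20, limma adjusted p = 0.165) and of Tbx3 with DMSO (0.059, limma adjusted p = 0.466), which scaling to 1 standard deviation ended as well (0.12, limma adjusted p = 0.0946).

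Tfcp2l1 measured 11.98, 11.96 and 11.92 in siPRMT1 with ATRA, against 11.52, 11.52 and 11.59 in siSCR with ATRA, a difference of 0.41 ± 0.043 (limma adjusted p = 4.3e-08). With DMSO it measured 11.85, 11.87 and 11.89 in siPRMT1, against 11.59, 11.59 and 11.54 in siSCR, a difference of 0.29 ± 0.043 (limma adjusted p = 4.64e-06). This direction is the opposite of that on day 4, and it was kept at 0.20 with ATRA and 0.12 with DMSO after scaling to 1 standard deviation. Klf2 measured 10.36, 10.28 and 10.45 in siPRMT1 with ATRA, against 10.63, 10.66 and 10.77 in siSCR with ATRA, a difference of -0.33 ± 0.067 (limma adjusted p = 0.000255). With DMSO it measured 10.33, 10.36 and 10.26 in siPRMT1, against 10.63, 10.62 and 10.64 in siSCR, a difference of -0.31 ± 0.067 (limma adjusted p = 0.000436). Klf2 thus stayed lower in siPRMT1 in each embryoid body state, at -0.19 with ATRA and -0.20 with DMSO after median centring and -0.58 and -0.52 after quantile normalization.

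Esrrb measured 11.61, 11.65 and 11.66 in siPRMT1 with ATRA, against 11.93, 11.87 and 11.98 in siSCR with ATRA, a difference of -0.29 ± 0.048 (limma adjusted p = 2.44e-05). With DMSO it measured 11.82, 11.79 and 11.80 in siPRMT1, against 12.04, 12.09 and 12.09 in siSCR, a difference of -0.27 ± 0.048 (limma adjusted p = 6.01e-05). The Esrrb arrays did not overlap in either treatment, and the differences ran from -0.16 in each after median centring to -0.51 with ATRA and -0.46 with DMSO after scaling to 1 standard deviation. Nanog with ATRA measured 12.81, 12.79 and 12.65 in siPRMT1, against 12.83, 12.89 and 12.89 in siSCR, a difference of -0.12 ± 0.051 (limma adjusted p = 0.0398). That call was lost without siPRMT1 ATRA replicate 3 or siSCR ATRA replicates 2 or 3, with the value at -0.071 without the siPRMT1 array (adjusted p = 0.22), and median centring of the arrays turned the difference to 0.011. With DMSO Nanog measured 12.70, 12.73 and 12.72 in siPRMT1, against 12.88, 12.88 and 12.89 in siSCR, a difference of -0.17 ± 0.051 (limma adjusted p = 0.00707), and median centring ended that call too (-0.059, limma adjusted p = 0.472). Scaling to 1 standard deviation gave -0.43 with ATRA and -0.42 with DMSO. As deposited its arrays did not overlap in either treatment.

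Klf5 measured 13.09, 13.09 and 12.99 in siPRMT1 with ATRA, against 12.67, 12.71 and 12.71 in siSCR with ATRA, a difference of 0.36 ± 0.048 (limma adjusted p = 1.44e-06). Scaling to 1 standard deviation ended that call (0.055, limma adjusted p = 0.398). With DMSO the groups overlapped, at 13.17, 13.18 and 13.21 in siPRMT1 and 13.14, 13.24 and 13.07 in siSCR, and the difference of 0.04 was not called (limma adjusted p = 0.519). Scaling every array to the same standard deviation turned that difference to -0.24 (limma adjusted p = 0.000587). Nr0b1 differed by -0.08 with ATRA (limma adjusted p = 0.0914) and by -0.11 with DMSO (limma adjusted p = 0.0354). The DMSO call was lost when any of 5 of the 6 arrays was left out (limma adjusted p 0.0341 to 0.0903 over the 6). Those arrays were siPRMT1 DMSO replicates 1, 2 and 3 and siSCR DMSO replicates 1 and 2. Its siPRMT1 arrays lay just under its siSCR arrays in both treatments as deposited, but its direction depended on the scaling. Median centring turned the ATRA difference to 0.048 (limma adjusted p = 0.459) and ended the DMSO call (adjusted p = 0.999), with the groups level. Scaling to 1 standard deviation gave -0.36 with ATRA (limma adjusted p = 1.42e-06) and -0.37 with DMSO (limma adjusted p = 1.23e-06).

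The untreated day 4 embryoid bodies and those with DMSO allow a check of what the 12 h of culture with the vehicle went with. In siPRMT1, Tbx3 fell by 0.37 ± 0.064 with DMSO (limma adjusted p = 0.00945) and the other 9 genes were not called, against 0.155% of all genes that fell and 0.306% that rose. The Tbx3 call was lost without siPRMT1 day 4 replicates 1 or 2 or siPRMT1 DMSO replicate 2 (adjusted p 0.0230 to 0.0803 over the 6). In siSCR, 6 of the 10 fell with DMSO and 1 rose, against 30.3% of all genes that fell and 30.8% that rose. Tfcp2l1 fell by 0.84 ± 0.043, Tbx3 by 0.78 ± 0.064, Klf4 by 0.70 ± 0.12, Tcl1 by 0.34 ± 0.081, Nanog by 0.27 ± 0.051 and Klf5 by 0.26 ± 0.048, and Zfp42 rose by 0.61 ± 0.054. In this comparison each siSCR DMSO array belongs to the 6 that stood apart, and state and this separation cannot be told apart. With every array scaled to the same standard deviation, 3 genes were called higher and 3 lower, Esrrb turned to 0.16 (limma adjusted p = 0.019), Nr0b1 to 0.20 (limma adjusted p = 0.00139) and Klf5 to 0.012, and Nanog (-0.011) and Tcl1 (-0.15) lost their calls. Klf2, not called as deposited (-0.10), turned to 0.030 under that scaling and to 0.060 after quantile normalization, which also turned Esrrb to 0.026.

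Retinoic acid, the ligand of the RAR nuclear receptors and an inducer of differentiation, was compared with DMSO inside each line, which sets the siSCR arrays that stood apart only against each other. In both lines Zfp42, Tcl1, Nr0b1 and Esrrb fell with ATRA and Tbx3 rose, and in siSCR Klf5 fell as well. That is 4 lower and 1 higher in siPRMT1, against 5.94% and 6.05% of all genes, and 5 lower and 1 higher in siSCR, against 12.2% and 11.2%. The medians of the 10 were -0.13 in siPRMT1 and -0.18 in siSCR, beside 0.03 in each line over all genes. The ATRA arrays lay wholly above the DMSO arrays for 2 genes and below for 6 in siPRMT1, against 18.3% and 18.1% of all genes, and above for 1 and below for 5 in siSCR, against 13.1% and 14.1%. Nanog, Klf2 and Tfcp2l1 were called in neither line, with differences between -0.03 and 0.08.

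Zfp42, whose arrays are given above, fell by 0.58 ± 0.054 in siPRMT1 (limma adjusted p = 1.04e-07) and by 0.52 ± 0.054 in siSCR (limma adjusted p = 6.87e-07). Tbx3 rose by 0.65 ± 0.064 in siPRMT1 (limma adjusted p = 2.34e-07) and by 0.40 ± 0.064 in siSCR (limma adjusted p = 0.000146). Tcl1 fell by 0.67 ± 0.081 in siPRMT1 (limma adjusted p = 4.21e-06) and by 0.38 ± 0.081 in siSCR (limma adjusted p = 0.00235). The ATRA arrays of each of these genes lay apart from the DMSO arrays in both lines. With only the groups compared in the fit, the siSCR calls of Tbx3 (adjusted p = 0.0919) and Tcl1 (adjusted p = 0.159) were lost. Without siSCR ATRA replicate 2 the Tcl1 value in siSCR was -0.25 (limma adjusted p = 0.0109). Nr0b1 measured 12.46, 12.38 and 12.41 with ATRA against 12.83, 12.79 and 12.80 with DMSO in siPRMT1, a fall by 0.39 ± 0.043 (limma adjusted p = 1.4e-06). In siSCR it measured 12.47, 12.50 and 12.54 with ATRA against 12.92, 12.94 and 12.88 with DMSO, a fall by 0.41 ± 0.043 (limma adjusted p = 8.28e-07). The same gene had risen on embryoid body formation in both lines, and its siPRMT1 ATRA arrays overlapped those of undifferentiated siPRMT1 cells, at 12.42, 12.43 and 12.47.

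Esrrb fell by 0.17 ± 0.048 in siPRMT1 (limma adjusted p = 0.0226) and by 0.15 ± 0.048 in siSCR (limma adjusted p = 0.0301), and both calls were weak. The siPRMT1 call was lost when any of 5 of the 6 arrays was left out (limma adjusted p 0.0429 to 0.0974 over the 6). Those arrays were siPRMT1 ATRA replicates 1 and 2 and siPRMT1 DMSO replicates 1, 2 and 3. Quantile normalization also ended the siPRMT1 call (-0.145, limma adjusted p = 0.0552). The siSCR call was lost without siSCR ATRA replicate 2 or siSCR DMSO replicates 2 or 3 (limma adjusted p 0.0212 to 0.106 over the 6). Quantile normalization (-0.076, limma adjusted p = 0.268) and scaling to 1 standard deviation (-0.15, limma adjusted p = 0.0534) ended the siSCR call. So did a fit with only the groups compared (limma adjusted p = 0.343). Klf4 differed by -0.12 in siPRMT1 (limma adjusted p = 0.609) and by -0.21 ± 0.12 in siSCR (limma adjusted p = 0.219). Without siSCR ATRA replicate 3, its highest array in that group, the siSCR value was -0.41 and was called (limma adjusted p = 0.00276). Without replicate 2, its lowest, it was 0.0084 and was not called.

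Klf5 was the gene of the 10 whose ATRA response differed between the lines. It differed by -0.13 ± 0.048 in siPRMT1 (limma adjusted p = 0.0961) and fell by 0.45 ± 0.048 in siSCR (limma adjusted p = 9.19e-07), and the difference of the responses, siPRMT1 minus siSCR, was 0.32 ± 0.068 (limma adjusted p = 0.0102). Of all genes 3.24% had a called difference of responses, and 1.92% of all genes had it in this direction. The differences of Tbx3 (0.25, limma adjusted p = 0.142) and Tcl1 (-0.29, limma adjusted p = 0.181) were not called. They were called after leaving out 1 siSCR ATRA array, replicate 3 for Tbx3 (0.32, limma adjusted p = 0.0353) and replicate 2 for Tcl1 (-0.42, limma adjusted p = 0.0104). When only the 4 groups of this comparison entered the fit, Klf5 was not called either.

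**Figure D5:**
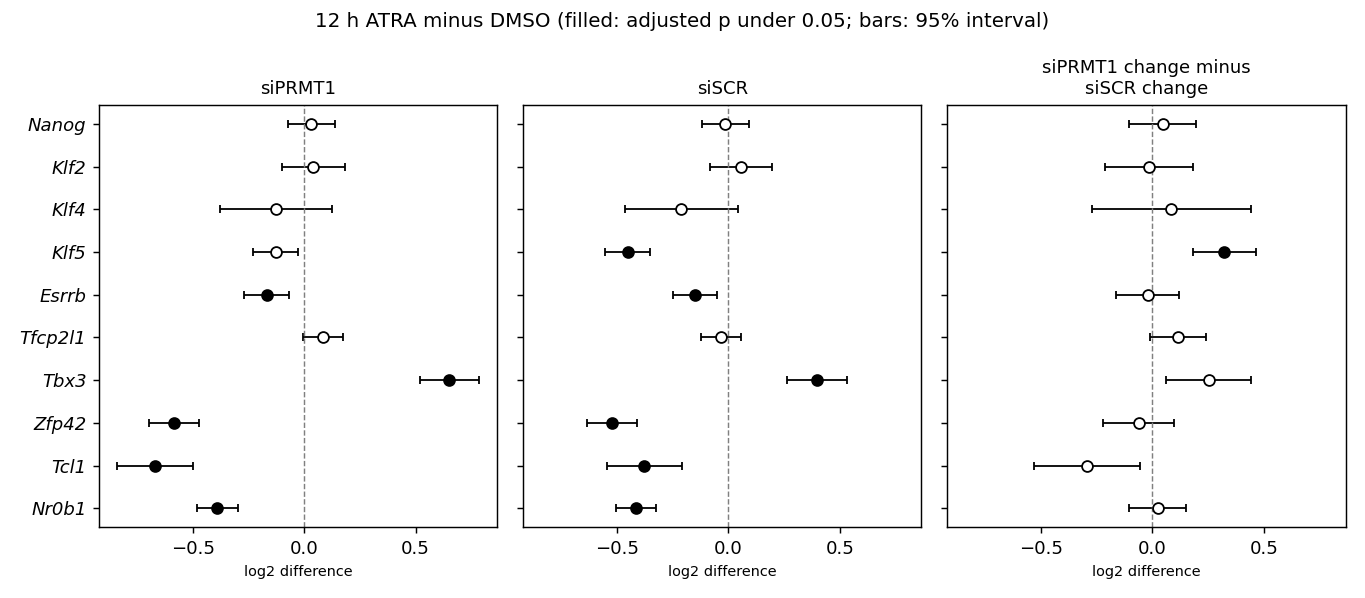
Differences of the 10 naive factors between ATRA and DMSO (x axis, log2 units) in siPRMT1, in siSCR and as the difference of the 2 lines, as points with 95% intervals, filled where the gene was called. Zfp42, Tcl1, Nr0b1 and Esrrb lie left of 0 and Tbx3 right of 0 in both lines, and Klf5 is the only filled point among the differences of the lines.

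Primed epiblast genes moved with the ATRA response too: all 8 fell in siPRMT1, with a median of -1.31, and 4 fell and 1 rose in siSCR, with a median of -0.34. Over all genes, beside the counts of this paragraph, 5.94% fell and 6.05% rose in siPRMT1, and 12.2% fell and 11.2% rose in siSCR. Among the other naive-state genes 4 of 8 fell and 1 rose in siPRMT1 and 3 fell and 1 rose in siSCR, with Nr5a2, a nuclear receptor gene, at -0.98 ± 0.055 in siPRMT1 and -0.66 ± 0.055 in siSCR. Pecam1 rose instead, by 1.13 ± 0.067 in siPRMT1 and 0.80 ± 0.067 in siSCR. Of the general pluripotency genes 6 of 11 fell and 1 rose in siPRMT1 and 3 fell and 1 rose in siSCR, with Sox2 at -0.42 ± 0.073 in siPRMT1 and -0.32 ± 0.073 in siSCR. Of the 9 LIF and STAT3 genes 2 rose and 0 fell in siPRMT1, with a median of 0.07. In siSCR 3 rose and 3 fell, with a median of 0.13 and a lowest value of -0.61. Pim1 had the largest rise of that list in both lines, by 0.96 ± 0.061 in siPRMT1 and 0.80 ± 0.061 in siSCR.

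The 10 genes did not all move alike, as on embryoid body formation in siPRMT1, where 7 were called lower and 1 higher. For the 4 genes whose group means spanned at least 1 unit, the closest other gene and the closest other naive factor were sought by the root mean square difference of the 8 group means, each centred on its own mean. Klf4 was closest to Bend6, at 0.12, and among the naive factors to Tfcp2l1, at 0.37. Tbx3 was closest to Tbc1d4, at 0.12, and to Tfcp2l1, at 0.23. Zfp42 was closest to Lmna, at 0.12, and to Esrrb, at 0.23, and Tcl1 to Ddah2, at 0.13, and to Esrrb, at 0.32. Each of these genes had a nearer profile outside the list, but far more genes were searched there than among the naive factors. That outcome therefore says nothing on whether the naive factors share a profile.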

How the data were processed

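The authors deposited 1 log2 expression value per probe set and array, where the base was inferred from the size of the values. Per the labels' protocols, RNA was purified on RNeasy columns and made into cDNA with a whole-transcript kit. Summarisation and normalization of the probes are not given in the sources used here. Of 35556 probe sets, 21789 had 1 gene symbol, 1621 several and 12146 none. Sets with 1 symbol were used, the brightest per gene, which left 19938 genes. Array values carry no counts, so precision is limited by the number of arrays (median standard error 0.0932).

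The 12 comparisons used the limma package, version 3.58.1 (R 4.3.3), as one moderated linear model with 8 group means on all 24 arrays and 16 residual degrees of freedom, and Benjamini-Hochberg adjustment over all genes of each. The labels call the arrays of a group biological replicates. The script was tested on simulated data. The text names the 10 members, Prmt1, listed genes chosen after their values were seen, and, for members spanning at least 1 unit, the nearest profiles. The members, lists and tests were chosen with earlier results of these data known. Alternatives were a replicate block, only the groups compared, other scalings, probe set and low-value rules, variance options, and leaving out arrays.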

Additional observations from a re-analysis of the deposited data

Results flagged for a closer look

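The response to embryoid body formation differed between the lines, by the interaction term of the limma fit (siPRMT1 minus siSCR, 3 arrays per group), for 6 of the 10 naive factors. The interaction was -1.32 for Tcl1 (adjusted p = 6.92e-08) and -1.13 for Klf2 (adjusted p = 4.46e-08), where the lines moved in opposite directions. It was -0.80 for Klf4 (adjusted p = 0.00159), which fell in both lines and further in siPRMT1. It was -0.42 for Esrrb (adjusted p = 9.85e-05) and -0.34 for Tfcp2l1 (adjusted p = 0.000269), which fell in siPRMT1 and were not called in siSCR. For Nr0b1, which rose in both lines, it was -0.28 (adjusted p = 0.0022), and median centring ended that call (-0.19, limma adjusted p = 0.093). The response to ATRA differed for Klf5, by 0.32 (limma adjusted p = 0.0102), since Klf5 fell with ATRA in siSCR and was not called in siPRMT1. With only the groups compared in the fit this difference was not called (limma adjusted p = 0.145).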

How the results depend on the processing

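Of 1990 recomputed values of single members, 1842 kept their direction and their side of the threshold, 44 turned in sign without being called either way, 59 lost a call, 40 gained one and 5 reversed. After scaling each array to the same standard deviation, Klf5 turned to -0.24 for siPRMT1 against siSCR with DMSO, and for DMSO against untreated siSCR embryoid bodies Esrrb turned to 0.16, Nr0b1 to 0.20 and Klf5 to 0.012. Median centring turned Nanog to 0.011 for siPRMT1 against siSCR with ATRA. The causes were not tested. With the replicate number as a block, members called numbered 6 in undifferentiated cells, 6 on day 4, 9 with DMSO and 9 with ATRA for the knockdown, and the counts of the other 8 comparisons were also as without it. No label pairs the arrays by number. Deviations of arrays with the same number in different groups correlated from -0.502 to 0.606, with a mean of 0.020. For different numbers the mean was -0.0097. Pairing between single groups was not tested.

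Array weights changed the count of all genes called for the knockdown to 7218 in undifferentiated cells and 6106 on day 4 (3747 and 3669 without weights). They gave 8969 for embryoid body formation in siSCR and 7688 for its interaction (5632 and 4754), 7640 for ATRA in siPRMT1 with 8 members and 1567 in siSCR (2391 with 5 members, and 4663), and 2536 for DMSO against untreated in siPRMT1 with 6 members (92 with 1). With only the groups compared in the fit, 544 genes and 3 members were called for ATRA in siSCR, and 135 and 0 for its interaction (646 and 1). Median centring gave 405 for that interaction and 47 for DMSO against untreated in siPRMT1, which came to 49 with scaling to the same standard deviation, 145 with 2 members under a trended, robust variance, and 286 without the 6 siSCR arrays of ATRA and DMSO.

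Without 1 array at a time, members called for the knockdown numbered 5 to 6 in undifferentiated cells and 5 to 5 on day 4 (2924 to 3172 and 2504 to 3327 of all genes), 8 to 9 with DMSO (11605 to 12790) and 8 to 9 with ATRA (12417 to 14271). They numbered 8 to 8 for embryoid body formation in siPRMT1 (6852 to 7795), 5 to 5 in siSCR (4661 to 5152) and 6 to 7 for the interaction (4015 to 4553). They numbered 4 to 5 for ATRA in siPRMT1 (1737 to 1903), 5 to 7 in siSCR (3816 to 4675) and 1 to 2 for the interaction (304 to 897 of all genes, the lowest without siPRMT1 ATRA replicate 2). For DMSO against untreated they numbered 0 to 1 in siPRMT1 (29 to 36, so any array left out ends most calls) and 7 to 7 in siSCR (10802 to 12144).

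The share of calls that were higher moved with median centring by over 10 percentage points in 7 comparisons. It was 82.9% after centring against 61.9% for the knockdown on day 4, 59.7% against 47.5% with DMSO, 59.8% against 45.9% with ATRA, 75.0% against 55.5% for embryoid body formation in siPRMT1, 78.0% against 63.0% for its interaction, 32.8% against 47.8% for ATRA in siSCR and 87.2% against 66.3% for DMSO against untreated in siPRMT1. Members lower on day 4 numbered 4 after centring, with 0 higher. The table carries no detection calls, and with 3 arrays a group small differences of bright genes stay near the threshold.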
